A study of Mus musculus with 15 samples.

Results

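The genes described here are 10 genes of the surface antigens and myeloid cytokine receptors of yolk sac (YS) erythro-myeloid progenitors (EMPs), namely *Kit*, *Cd34*, *Fcgr3*, *Fcgr2b*, *Csf2ra*, *Il3ra*, *Il6ra*, *Csf2rb*, *Csf2rb2* and *Csf3r*. They were chosen by name, as markers of EMPs and as receptors for the cytokines that drive myeloid growth, and all 10 were present among the 17454 genes of the expression table. Their levels are not free of the sort, because KIT and CD16/32, the products of *Kit* and of *Fcgr3* and *Fcgr2b*, were among the antigens by which the cells were collected.

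EMPs are progenitors that leave the hemogenic endothelium of the YS and give rise to erythroid and myeloid cells. KIT is the receptor for stem cell factor and CD34 a sialomucin of progenitors and endothelium, while the receptors for GM-CSF, IL-3 and IL-6 pair a ligand-binding chain with a signalling chain that several receptors share. Fc gamma receptors bind the constant part of IgG and either activate the cell (*Fcgr3*, which needs the chain made by *Fcer1g*) or inhibit it (*Fcgr2b*).

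RNA was sequenced from sorted EMPs of E10.5 YS of C57BL/6 embryos, each library from an individual YS and, per the labels, 500 cells, in 15 libraries of 4 groups. All embryos carried Ezh2fl/fl, so the controls had floxed alleles as well. Tie2-Ezh2-WT (3 libraries, replicates 4, 10 and 12) and Vav-Ezh2-WT (2 libraries, replicates 4 and 6) lacked Cre. Tie2-Ezh2-KO (5 libraries, replicates 7, 9, 11, 13 and 17) carried Tie2-Cre, which is active in endothelium before EMPs emerge and in their progeny. Vav-Ezh2-KO (5 libraries, replicates 1, 9, 10, 26 and 28) carried Vav-iCre (Vav-Cre in the labels), which is active in hematopoietic cells. The 5 libraries of both control groups together are called WT. The sort took cells negative for lineage antigens and SCA1 and positive for KIT, CD16/32 and CD41. Libraries came from several independent experiments that the labels do not assign to libraries, and both sexes were used, so neither could be entered in the tests.

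Levels are in RPKM, reads scaled by gene length and by library size. Reads on genes ranged from 10407398 to 41025074 per library, recovered from the steps between low RPKM values. The least covered of the 10 genes was *Csf2rb2*, with 8 to 161 reads per library, followed by *Il6ra* (21 to 160) and *Il3ra* (22 to 142), whereas *Cd34* had 3303 to 15296. Counting error alone therefore amounts to 35.4% of the value for *Csf2rb2* in its least covered library and 1.74% for *Cd34*, before the added error of PCR copies, which are not independent molecules.

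The floxed gene was looked at first. *Ezh2*, on chromosome 6 from 47530274 to 47595270 of GRCm38, was at 36.9, 39.5 and 30.1 RPKM in Tie2-Ezh2-WT replicates 4, 10 and 12, and at 42.0 and 41.5 in Vav-Ezh2-WT replicates 4 and 6. Tie2-Ezh2-KO replicates 7, 9, 11, 13 and 17 had 27.8, 26.2, 24.8, 29.5 and 26.5 RPKM, each under the lowest WT value (log2 difference -0.48, limma adjusted p = 0.0418). Vav-Ezh2-KO replicates 1, 9, 10, 26 and 28 had 33.7, 42.4, 37.8, 38.1 and 34.0 RPKM, with replicate 9 above the highest WT library and the other 4 within the range of WT (log2 difference -0.02, limma adjusted p = 0.969). A value over the whole gene includes reads from exons that Cre does not remove, so it does not check the labels of Vav-Ezh2-KO.

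The other antigens of the gate were present or absent as the sort required in WT. *Itga2b*, which encodes CD41, was at 31.1 ± 6.38 RPKM (SD, n = 5), close to *Kit*. *Ly6a*, which encodes SCA1, was at 0.405 ± 0.355 RPKM (SD, n = 5), *Il7r* at 0.330 ± 0.420 and the F4/80 gene, listed as *Emr1*, at 0.532 ± 0.398 (SD, n = 5 each). *Ly6c1* was at 0.00296 ± 0.00663 RPKM and *Ly6c2* was listed at 0 in all 5. Among lineage antigens, *Ptprc*, which encodes all forms of CD45 including B220, was at 10.52 ± 2.50 RPKM (SD, n = 5). The table holds neither *Cd3e* nor *Ly6g*. Of the 11 gate antigens in the table, 0 of 10 tested passed with limma in Tie2-Ezh2-KO against WT, and 0 of 11 in each of the other knockout comparisons, where 2.73%, 0.00733% and 3.51% of all genes passed in Tie2-Ezh2-KO against WT, Vav-Ezh2-KO against WT and Tie2-Ezh2-KO against Vav-Ezh2-KO. In Tie2-Ezh2-KO against WT 4 of 10 had an unadjusted p under 0.05, beside 1552 of all 14154 genes, namely *Fcgr3*, *Fcgr2b*, *Ptprc* (log2 difference -0.80, unadjusted p = 0.0261) and *Emr1* (-1.05, unadjusted p = 0.0230).

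The levels of the 10 genes in WT spanned more than 2 orders of magnitude. *Cd34* led with 154 ± 33.1 RPKM (SD, n = 5), followed by *Fcgr3* with 124 ± 22.3, *Kit* with 28.6 ± 2.24 and *Csf3r* with 25.0 ± 5.74 RPKM. *Fcgr2b* had 9.07 ± 2.42, *Csf2rb* 6.32 ± 2.83, *Csf2ra* 6.31 ± 0.600 and *Il3ra* 2.87 ± 0.901 RPKM. *Il6ra* with 1.38 ± 0.989 and *Csf2rb2* with 0.793 ± 0.585 RPKM came last. WT ranges of neighbours in this order were apart between *Fcgr3* and *Kit*, between *Csf3r* and *Fcgr2b* and between *Csf2ra* and *Il3ra*, and overlapped for the other 6 pairs of neighbours. *Cd34* exceeded 93.8% and *Csf2rb2* 23.1% of the 13100 genes above 0.2 RPKM in a WT library.

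**Figure D1:**
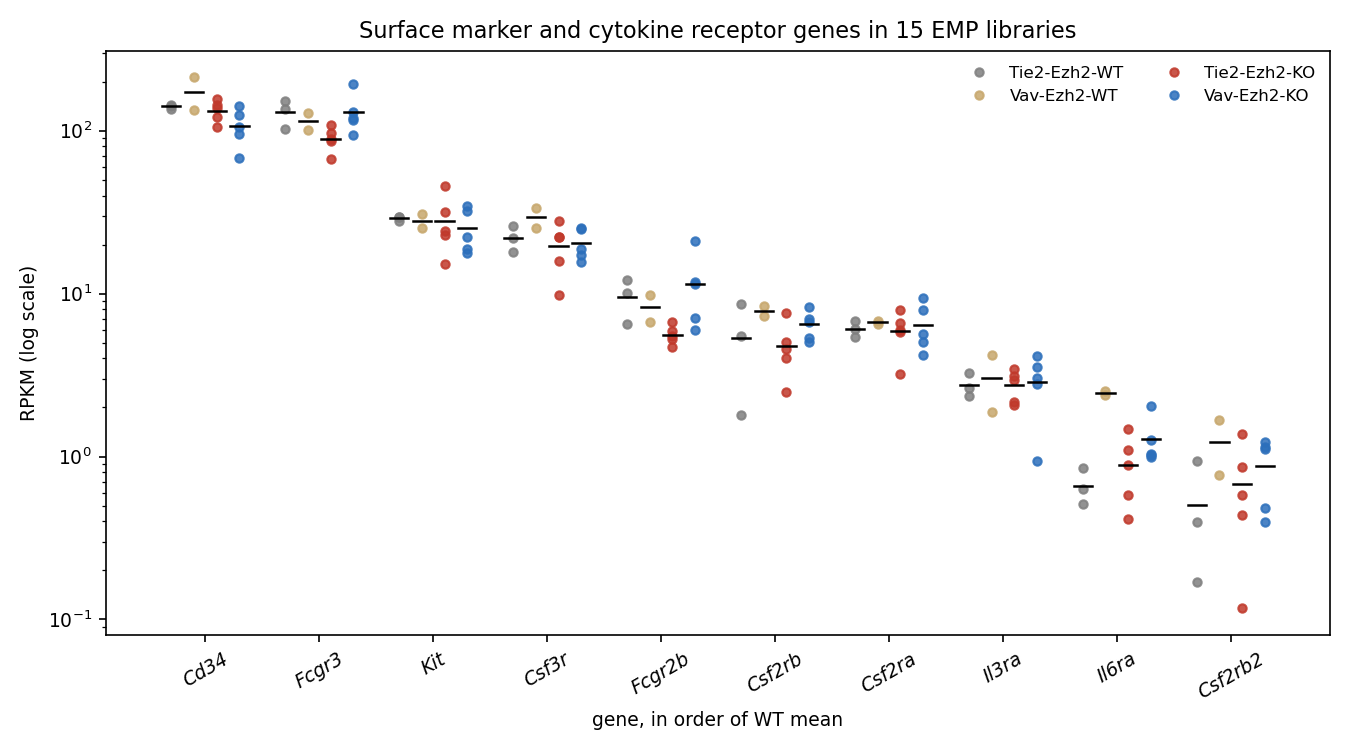
RPKM on a log axis of the 10 genes in each of the 15 libraries, in order of WT mean, with a point per library coloured by group and a line at the group mean. *Cd34* and *Fcgr3* lie highest, *Kit* and *Csf3r* overlap below them, the Tie2-Ezh2-KO points of *Fcgr2b* sit between 4.68 and 6.67 RPKM, and the 2 Vav-Ezh2-WT points of *Il6ra* lie above those of Tie2-Ezh2-WT.

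Differences were tested with limma on log2(RPKM + 0.2) over all genes, and a Benjamini-Hochberg adjusted p under 0.05 was required. For genes near the added 0.2 RPKM, this scale makes differences look smaller than they are. In Tie2-Ezh2-KO against WT, 0 of the 10 genes passed, where 2.73% of the 14154 genes tested did (386 genes), and *Fcgr3* and *Fcgr2b* were the 2 of 10 with an unadjusted p under 0.05, beside 1552 of all 14154 genes. The median difference of the 10 genes was -0.25, beside 0.01 over all genes tested. All 10 differences lay below 0, against 48.1% of all genes tested, but the sign is not firm for several of them: with array weights *Il3ra* was at 0.01, and with the Tie2-Ezh2-WT libraries alone *Csf2rb*, *Csf2rb2* and *Il6ra* were at 0.01, 0.28 and 0.27. Against Tie2-Ezh2-WT alone 7 of 10 differences lay below 0, with a median of -0.09. Between Tie2-Ezh2-WT and Vav-Ezh2-WT the 10 genes also leaned, with 7 of 10 below 0 and a median of -0.20 (-0.02 over all genes tested), and in the difference of the knockout effects 8 of 10 lay above 0 (median 0.19, beside 0.06). With limma-voom on recovered reads 0 of the 10 genes passed as well, again with 2 at an unadjusted p under 0.05, and *Csf2rb2* was at 0.13.

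In Vav-Ezh2-KO against WT, 0 of the 10 genes passed with limma, where 0.00733% of the 13646 genes tested did (1 gene). *Cd34* was the only 1 of the 10 with an unadjusted p under 0.05, beside 7.93% of all genes in this test, both here and with limma-voom, which also called 0 of the 10. Against the pooled WT, 5 differences were above and 5 below 0, with a median of 0.02, beside -0.02 over all genes tested. Against Vav-Ezh2-WT alone 8 of 10 lay below 0, with a median of -0.24, beside -0.04 over all genes, so the balance depended on the controls. In Tie2-Ezh2-KO against Vav-Ezh2-KO, tested directly, 0 of the 10 passed, where 3.51% of 14120 genes did (495 genes). *Fcgr3* and *Fcgr2b* (2 of 10, beside 16.6% of all genes with limma) had an unadjusted p under 0.05 there, with limma and with limma-voom, which called 0 of the 10. The median difference was -0.25, beside 0.04 over all genes tested.

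**Figure D2:**
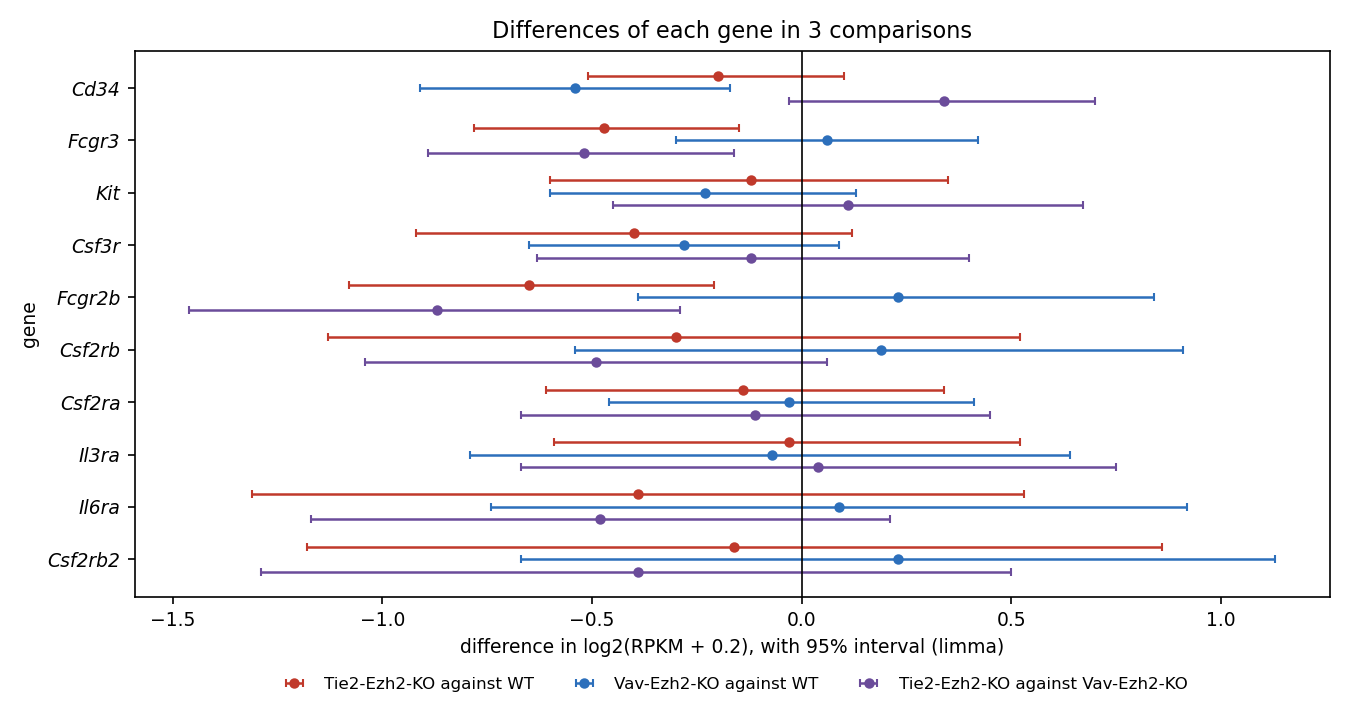
Difference in log2(RPKM + 0.2) of each gene with its 95% interval from limma (horizontal axis), for Tie2-Ezh2-KO against WT, Vav-Ezh2-KO against WT and Tie2-Ezh2-KO against Vav-Ezh2-KO, with 5 libraries in each arm. Intervals that leave out 0 are those of *Fcgr3* and *Fcgr2b* in both comparisons of Tie2-Ezh2-KO and of *Cd34* in Vav-Ezh2-KO against WT, and none of the differences passed the adjusted threshold.

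Of the sort antigens, *Kit* on chromosome 5 was the steadiest in WT. It had 27.9, 29.6 and 29.6 RPKM in Tie2-Ezh2-WT replicates 4, 10 and 12 and 25.1 and 31.0 in Vav-Ezh2-WT replicates 4 and 6. In Tie2-Ezh2-KO replicates 7, 9, 11, 13 and 17 it had 23.0, 15.2, 24.1, 45.8 and 31.8 RPKM, and in Vav-Ezh2-KO replicates 1, 9, 10, 26 and 28 it had 18.9, 32.2, 17.7, 34.7 and 22.4 RPKM. Both knockouts thus spread to either side of the WT range, with 3 libraries below and 2 above it in each. The coefficient of variation was 7.82% in WT, 41.4% in Tie2-Ezh2-KO and 31.0% in Vav-Ezh2-KO, and the difference in spread was not tested. The log2 difference was -0.12 (95% interval -0.60 to 0.35, limma adjusted p = 0.941) in Tie2-Ezh2-KO and -0.23 (-0.60 to 0.13, limma adjusted p = 0.754) in Vav-Ezh2-KO, and without Tie2-Ezh2-KO replicate 9 the first was 0.07.

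*Cd34*, on chromosome 1, is not part of the gate. It had 144, 136 and 142 RPKM in Tie2-Ezh2-WT replicates 4, 10 and 12, and 134 and 213 in Vav-Ezh2-WT replicates 4 and 6. Tie2-Ezh2-KO replicates 7, 9, 11, 13 and 17 had 122, 137, 105, 156 and 144 RPKM, and Vav-Ezh2-KO replicates 1, 9, 10, 26 and 28 had 105, 68.4, 125, 141 and 95.9 RPKM. In Vav-Ezh2-KO 4 of 5 libraries lay below every WT library, and replicate 26 lay inside the WT range. The log2 difference was -0.54 (95% interval -0.91 to -0.17, unadjusted p = 0.00767, limma adjusted p = 0.542), between -0.70 and -0.39 under all 21 alternatives tried, with adjusted p from 0.314 to 0.862. In Tie2-Ezh2-KO it was -0.20 (-0.51 to 0.10, limma adjusted p = 0.750), with 2 libraries below the WT range, and -0.08 without Vav-Ezh2-WT replicate 6. The direct difference between the knockouts was 0.34 (-0.03 to 0.70, limma adjusted p = 0.350).

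*Fcgr3* encodes the activating receptor CD16 and had the higher RNA level of the genes behind CD16/32. It had 102, 135 and 152 RPKM in Tie2-Ezh2-WT replicates 4, 10 and 12 and 128 and 101 in Vav-Ezh2-WT replicates 4 and 6. In Tie2-Ezh2-KO replicates 7, 9, 11, 13 and 17 it had 96.2, 86.5, 108, 66.9 and 89.2 RPKM, so that 4 of 5 libraries lay below every WT library and replicate 11 lay among them. Vav-Ezh2-KO replicates 1, 9, 10, 26 and 28 had 129.6, 194, 94.6, 116 and 119 RPKM, with replicate 9 above and replicate 10 below the WT range. The log2 difference in Tie2-Ezh2-KO was -0.47 (95% interval -0.78 to -0.15, unadjusted p = 0.00617, limma adjusted p = 0.131), a fold of 0.724, and it did not pass the threshold. It lay between -0.54 and -0.37 under all 21 alternatives tried, with limma adjusted p from 0.0797 to 0.364. In Vav-Ezh2-KO it was 0.06 (-0.30 to 0.42, limma adjusted p = 0.947). Set directly against Vav-Ezh2-KO, Tie2-Ezh2-KO was at -0.52 (-0.89 to -0.16, limma adjusted p = 0.117). In bulk libraries such as these, fewer cells that express a gene and less RNA per cell cannot be told apart.

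*Fcgr2b* encodes the inhibitory receptor CD32. It had 6.53, 12.2 and 10.04 RPKM in Tie2-Ezh2-WT replicates 4, 10 and 12 and 9.86 and 6.71 in Vav-Ezh2-WT replicates 4 and 6. In Tie2-Ezh2-KO replicates 7, 9, 11, 13 and 17 it had 5.89, 5.29, 5.46, 4.68 and 6.67 RPKM, 4 of 5 below every WT library, with replicate 17 just above the lowest WT library. Vav-Ezh2-KO replicates 1, 9, 10, 26 and 28 were spread more widely, at 11.8, 20.9, 5.95, 11.4 and 7.05 RPKM. The log2 difference in Tie2-Ezh2-KO was -0.65 (95% interval -1.08 to -0.21, unadjusted p = 0.00617, limma adjusted p = 0.131) and in Vav-Ezh2-KO 0.23 (-0.39 to 0.84, limma adjusted p = 0.863). The direct difference was -0.87 (-1.46 to -0.29, limma adjusted p = 0.102), and this was the only result of the 10 genes that passed the threshold under an alternative. Without Vav-Ezh2-KO replicate 10, whose value of 5.95 RPKM lay in the range of Tie2-Ezh2-KO, it was -1.07 with limma adjusted p = 0.0417, where the range over all 20 alternatives was 0.0417 to 0.204.

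*Fcgr3* and *Fcgr2b* are separated by 75097 bases on chromosome 1, at 171051169 to 171065915 and 170960558 to 170976071 of GRCm38. The ratio of *Fcgr3* to *Fcgr2b* in RPKM was 11.1 to 15.6 in WT (median 14.98), 13.4 to 19.8 in Tie2-Ezh2-KO (median 16.3) and 9.30 to 16.9 in Vav-Ezh2-KO (median 11.01), so all groups overlapped. Both genes share parts of their sequence, but of the windows of 75 bases in coding transcripts of *Fcgr3*, the length of 1 read, 5.78% were found unchanged in *Fcgr2b*, and 2.48% the other way round, so most reads could be placed. Between and beside them, chosen after their values were seen, lie *Fcgr4* and *Fcrla*, 2 other genes of the Fc receptor family with low levels. *Fcgr4* averaged 0.789 RPKM in WT, 0.407 in Tie2-Ezh2-KO and 1.09 in Vav-Ezh2-KO (direct log2 difference -1.22, limma adjusted p = 0.142). *Fcrla* was at 0.253 ± 0.162, 0.0273 ± 0.0375 and 0.385 ± 0.267 RPKM (SD, n = 5 each), and 3 of 5 Tie2-Ezh2-KO libraries were at 0. *Sdhc*, a subunit of respiratory complex II on the far side of *Fcgr3*, was at 0.07 in Tie2-Ezh2-KO against WT (limma adjusted p = 0.935). *Fcrlb*, in the same stretch, did not pass the filter of 0.2 RPKM and was not tested. It averaged 0 RPKM in WT and in Vav-Ezh2-KO and 0.0787 in Tie2-Ezh2-KO.

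Because both receptor genes had their lowest values in Tie2-Ezh2-KO replicates 13 and 9, their promoters are shown, 300 bases from 250 before to 50 after the start of transcription, from RefSeq on GRCm38.p6. Of the 10 genes, 9 had an entry there. Capitals mark the motif (GAGGAA), which PU.1 can bind, or its reverse complement (TTCCTC). Both stand on the minus strand, *Fcgr3* at chr1:171059345-171059644 and *Fcgr2b* at chr1:170976022-170976321. The window of *Fcgr3* lies within the span given above for the gene, so it is not at the outer end of that span. Another entry of *Fcgr3*, at chr1:171059354-171059653, is not shown.
Fcgr3: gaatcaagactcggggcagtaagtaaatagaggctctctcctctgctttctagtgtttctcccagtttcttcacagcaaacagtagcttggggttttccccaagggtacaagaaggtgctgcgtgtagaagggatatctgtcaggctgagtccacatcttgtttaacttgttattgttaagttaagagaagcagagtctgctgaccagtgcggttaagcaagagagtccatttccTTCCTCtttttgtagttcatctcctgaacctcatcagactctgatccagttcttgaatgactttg
Fcgr2b: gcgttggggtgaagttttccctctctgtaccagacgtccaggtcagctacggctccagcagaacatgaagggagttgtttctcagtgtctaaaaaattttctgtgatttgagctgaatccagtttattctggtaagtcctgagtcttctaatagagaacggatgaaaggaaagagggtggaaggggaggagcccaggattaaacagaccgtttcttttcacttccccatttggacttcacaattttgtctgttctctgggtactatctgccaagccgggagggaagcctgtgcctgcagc
The window of *Fcgr3* holds 1 match and that of *Fcgr2b* none, and 28.3% of 32851 promoter windows of this length hold at least 1 match on either strand. The RUNX motif (TGTGGT), found in 16.8% of windows, and the GATA motif (AGATAA), found in 11.2%, were in neither window. A match is a description, and binding was not tested.

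The alpha chains bind the ligand and set its identity. *Csf2ra* (chromosome 19), for GM-CSF, had 6.03, 6.81 and 5.41 RPKM in Tie2-Ezh2-WT replicates 4, 10 and 12 and 6.83 and 6.48 in Vav-Ezh2-WT replicates 4 and 6. It ranged from 3.22 to 7.94 RPKM in Tie2-Ezh2-KO and from 4.17 to 9.37 in Vav-Ezh2-KO, so both knockouts enclosed the WT range of 5.41 to 6.83. The log2 differences were -0.14 (95% interval -0.61 to 0.34, limma adjusted p = 0.934) and -0.03 (-0.46 to 0.41, limma adjusted p = 0.983).

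*Il3ra* (chromosome 14) encodes the IL-3 receptor alpha chain, CD123. It ranged from 1.88 to 4.21 RPKM in WT, from 2.07 to 3.43 in Tie2-Ezh2-KO and from 0.936 to 4.11 in Vav-Ezh2-KO, where replicate 10 stood alone, with 22 reads, and the other 4 libraries were at 2.79 or above. The log2 differences were -0.03 (95% interval -0.59 to 0.52, limma adjusted p = 0.992) and -0.07 (-0.79 to 0.64, limma adjusted p = 0.969). Without that library the Vav-Ezh2-KO difference was 0.25.

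*Il6ra* (chromosome 3) encodes the IL-6 receptor alpha chain, which signals through the gp130 chain made by *Il6st*. It had 0.632, 0.511 and 0.846 RPKM in Tie2-Ezh2-WT replicates 4, 10 and 12, but 2.51 and 2.40 in Vav-Ezh2-WT replicates 4 and 6. Tie2-Ezh2-KO replicates 7, 9, 11, 13 and 17 had 0.582, 0.411, 1.47, 1.09 and 0.892 RPKM, and Vav-Ezh2-KO replicates 1, 9, 10, 26 and 28 had 1.04, 1.27, 0.994, 2.05 and 1.02 RPKM. The 2 control groups did not overlap, while every knockout library but Tie2-Ezh2-KO replicates 7 and 9 lay between them. The log2 difference of Tie2-Ezh2-WT from Vav-Ezh2-WT was -1.64 (95% interval -2.49 to -0.79, unadjusted p = 0.00173, limma adjusted p = 0.202) over 3 and 2 libraries. In that comparison 0 of the 10 genes passed with limma, 1 of them, *Il6ra*, having an unadjusted p under 0.05 (8.92% of all genes), where 0.153% of 13100 genes passed (20 genes).

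The choice of controls therefore set the sign of *Il6ra*. Against all 5 WT libraries the log2 difference was -0.39 in Tie2-Ezh2-KO (95% interval -1.31 to 0.53, limma adjusted p = 0.890) and 0.09 in Vav-Ezh2-KO (-0.74 to 0.92, limma adjusted p = 0.968). Against the corresponding WT alone it was 0.27 in Tie2-Ezh2-KO and -0.89 in Vav-Ezh2-KO (unadjusted p = 0.512 and 0.0204), and neither passed with limma. The difference between the knockout effects, each against its own WT, was 1.16 (0.06 to 2.26, unadjusted p = 0.0404, limma adjusted p = 0.714). In this test of the difference of effects 0 of the 10 genes passed with limma, 3 having an unadjusted p under 0.05 (6.54% of all genes), where 0.181% of 14394 genes passed (26 genes). The other 2 were *Fcgr3* at -0.70 (limma adjusted p = 0.668) and *Fcgr2b* at -1.06 (limma adjusted p = 0.714). Whether an experiment, a litter or the strain background goes with the control groups cannot be told apart from the groups.

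The ratio of *Il6ra* to *Il6st* was 0.588 to 1.16 in Tie2-Ezh2-WT and 1.89 to 2.61 in Vav-Ezh2-WT. In the knockouts it was 0.535 to 1.40 in Tie2-Ezh2-KO and 1.28 to 3.14 in Vav-Ezh2-KO, so that each knockout overlapped the other. Both genes were near 1 RPKM, with few reads behind each value. Among the other alpha chains, *Il3ra* was at 0.224 to 0.811 of *Csf2ra*, below it in all 15 libraries.

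The beta chains carry the signal of the receptors for GM-CSF, IL-3 and IL-5. *Csf2rb*, the common chain, had 5.46, 8.67 and 1.80 RPKM in Tie2-Ezh2-WT replicates 4, 10 and 12 and 7.31 and 8.38 in Vav-Ezh2-WT replicates 4 and 6. Tie2-Ezh2-KO replicates 7, 9, 11, 13 and 17 had 5.04, 4.05, 2.49, 4.60 and 7.60 RPKM, and Vav-Ezh2-KO replicates 1, 9, 10, 26 and 28 had 8.31, 5.31, 5.07, 6.97 and 6.74 RPKM. Tie2-Ezh2-WT replicate 12, the library with the most reads, was the lowest of all 15, and all Vav-Ezh2-KO libraries lay between 5.07 and 8.31 RPKM. Against WT the log2 differences were -0.30 (95% interval -1.13 to 0.52, limma adjusted p = 0.899) in Tie2-Ezh2-KO and 0.19 (-0.54 to 0.91, limma adjusted p = 0.914) in Vav-Ezh2-KO. Without Tie2-Ezh2-WT replicate 12 they were -0.69 and -0.20, so this library set the sign of the second. Set directly against Vav-Ezh2-KO, 4 of the 5 Tie2-Ezh2-KO libraries lay below all Vav-Ezh2-KO libraries (log2 difference -0.49, 95% interval -1.04 to 0.06, limma adjusted p = 0.370).

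*Csf2rb2*, a beta chain of the mouse that serves IL-3, was the lowest of the 10 genes. It ranged from 0.169 to 1.69 RPKM in WT, from 0.117 to 1.37 in Tie2-Ezh2-KO and from 0.398 to 1.23 in Vav-Ezh2-KO, a fold of 14.4 between the highest and the lowest library, which was the widest of the 10 genes. The log2 differences were -0.16 (95% interval -1.18 to 0.86, limma adjusted p = 0.969) and 0.23 (-0.67 to 1.13, limma adjusted p = 0.912). Its lowest libraries, Tie2-Ezh2-KO replicate 11 and Tie2-Ezh2-WT replicate 12, were also the lowest 2 of *Csf2rb*. The genes lie 20078 bases apart on chromosome 15, and 10.9% of the windows of 75 bases in *Csf2rb2* transcripts were found unchanged in those of *Csf2rb* (9.97% the other way round). Reads from these windows could have been assigned to either gene, so the level of *Csf2rb2*, at 0.0469 to 0.231 of *Csf2rb*, is uncertain. The ratio of *Csf2ra* to *Csf2rb*, from 0.682 to 3.01 over the 15 libraries, was highest in Tie2-Ezh2-WT replicate 12.

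*Csf3r* (chromosome 4) encodes the G-CSF receptor, which pairs with itself and drives the neutrophil lineage. It had 21.9, 26.2 and 18.0 RPKM in Tie2-Ezh2-WT replicates 4, 10 and 12 and 25.4 and 33.4 in Vav-Ezh2-WT replicates 4 and 6. Tie2-Ezh2-KO replicates 7, 9, 11, 13 and 17 had 22.3, 16.0, 9.80, 27.7 and 22.2 RPKM, and Vav-Ezh2-KO replicates 1, 9, 10, 26 and 28 had 25.3, 17.3, 18.9, 25.0 and 15.7 RPKM. In each knockout 2 of 5 libraries lay below the WT range and none above it. The log2 differences were -0.40 (95% interval -0.92 to 0.12, limma adjusted p = 0.670) in Tie2-Ezh2-KO and -0.28 (-0.65 to 0.09, limma adjusted p = 0.698) in Vav-Ezh2-KO. Leaving out 1 library gave -0.54 to -0.17 for the first and -0.39 to -0.17 for the second. Against Vav-Ezh2-WT alone the second was -0.53 (unadjusted p = 0.0228, limma adjusted p = 0.862). *Csf3r* exceeded *Csf2ra* in all 15 libraries, by 1.68 to 5.16 times in RPKM.

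Other genes of the same pathways were followed through lists chosen by name. For comparison, over all genes tested 2.73% passed with limma in Tie2-Ezh2-KO against WT, 0.00733% in Vav-Ezh2-KO against WT and 3.51% in the direct comparison. Of the other Fc receptor genes, 9 were tested in each knockout comparison and 0 passed against WT. In the direct comparison 1 of 9, *Fcrla*, was below the threshold (log2 difference -1.26, limma adjusted p = 0.0435). In this comparison it exceeded the filter of 0.2 RPKM only in Vav-Ezh2-KO libraries, its highest Tie2-Ezh2-KO value being 0.0720 RPKM, so nothing further is drawn from it. *Fcer1g*, whose product *Fcgr3* needs at the surface, was the most abundant with 306 ± 32.6 RPKM in WT, 259 ± 83.7 in Tie2-Ezh2-KO and 333 ± 36.8 in Vav-Ezh2-KO (SD, n = 5 each). *Fcrl1* and *Fcgrt* followed in WT with 1.68 ± 0.594 and 1.12 ± 0.398 RPKM.

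Of the other hematopoietic cytokine receptors, 1 of 33 tested passed in Tie2-Ezh2-KO against WT, where 2.73% of all genes did, and 0 of 33 in Vav-Ezh2-KO and in the direct comparison. This was *Il5ra*, the alpha chain for IL-5, which also signals through *Csf2rb*. It had 1.49, 1.32 and 1.69 RPKM in Tie2-Ezh2-WT replicates 4, 10 and 12, 1.29 and 1.85 in Vav-Ezh2-WT replicates 4 and 6, and 0.406, 0.479, 0.627, 0.682 and 0.455 in Tie2-Ezh2-KO replicates 7, 9, 11, 13 and 17. The highest Tie2-Ezh2-KO value was under the lowest of WT (log2 difference -1.25, limma adjusted p = 0.0146). The median of the list was -0.00, beside 0.01 over all genes tested. *Il2rg*, the common gamma chain, and *Ifngr1* were among the highest in WT, at 136 ± 36.5 and 80.4 ± 10.4 RPKM (SD, n = 5 each), and at 91.4 ± 12.4 and 66.4 ± 9.45 in Tie2-Ezh2-KO.

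Most ligands of these receptors were near the floor, as 3 of 10 in the table were tested in Tie2-Ezh2-KO against WT. *Flt3l* was highest in WT with 4.18 ± 1.96 RPKM, followed by *Il6* with 1.30 ± 1.08 and *Csf1* with 0.132 ± 0.103 (SD, n = 5 each). *Il6* was lower in Tie2-Ezh2-KO, at 0.135 ± 0.168 RPKM (SD, n = 5; log2 difference -2.04, limma adjusted p = 0.0221).

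Of 50 genes of receptor signalling, 1 passed in Tie2-Ezh2-KO against WT and 0 in Vav-Ezh2-KO. *Socs2*, a feedback inhibitor of cytokine signalling, rose from 2.08 ± 0.348 to 4.62 ± 1.22 RPKM (SD, n = 5 each; log2 difference 1.06, limma adjusted p = 0.0267). The median difference of the list was -0.14, beside 0.01 over all genes tested, and 35 of 50 differences were below 0, against 48.1% of all genes. Between the control groups the list leaned the same way, with 36 of 50 below 0 and a median of -0.19. In the direct comparison 2 of 50 passed, where 3.51% of all genes did, both lower in Tie2-Ezh2-KO. *Grb2*, an adaptor of KIT and cytokine receptors, was at 46.4 ± 2.69 RPKM in Tie2-Ezh2-KO and 70.2 ± 9.26 in Vav-Ezh2-KO (log2 difference -0.59, limma adjusted p = 0.00638), and *Btk*, a kinase downstream of antigen and Fc receptors, at 32.0 ± 5.74 and 50.8 ± 6.70 (-0.67, limma adjusted p = 0.0140). The control groups were apart for both genes as well. *Grb2* was at 49.8 to 59.5 RPKM in Tie2-Ezh2-WT and 63.9 to 67.9 in Vav-Ezh2-WT, and *Btk* at 38.5 to 41.2 and 47.6 to 50.1. The difference of the knockout effects, each against its own WT, was -0.31 for *Grb2* and -0.39 for *Btk* (limma adjusted p = 0.854 and 0.855). *Ccnd3* and *Ptpn6* were the most abundant of the list in WT, at 302 ± 28.9 and 174 ± 23.0 RPKM, with *Grb2* at 59.1 ± 7.24.

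Of 24 progenitor surface genes tested, 1 rose and 1 fell in Tie2-Ezh2-KO against WT, and 0 passed in Vav-Ezh2-KO. *Cd24a* rose from 3.30 ± 1.27 to 12.04 ± 0.931 RPKM (SD, n = 5 each; log2 difference 1.88, limma adjusted p = 0.000434). *Cd53*, a tetraspanin of leukocytes, fell from 30.9 ± 7.91 to 12.6 ± 4.18 RPKM (log2 difference -1.32, limma adjusted p = 0.00868). In the direct comparison both passed as well, and *Cd52* was lower in Tie2-Ezh2-KO, at 41.1 ± 11.3 against 81.1 ± 18.1 RPKM in Vav-Ezh2-KO (log2 difference -0.99, limma adjusted p = 0.00831). For *Cd53* and *Cd52* the control groups did not overlap either. *Cd53* was at 18.8 to 31.8 RPKM in Tie2-Ezh2-WT and 33.0 to 40.8 in Vav-Ezh2-WT, and *Cd52* at 45.5 to 62.6 and 67.0 to 75.7. Their differences of the knockout effects were -1.03 and -0.62 (limma adjusted p = 0.544 and 0.809). *Cd63*, *Cd47* and *Cd9* were the most abundant in WT, at 326 ± 67.2, 157 ± 13.3 and 125 ± 31.3 RPKM.

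Marker genes of other cell types were summed per library. For primitive erythroid cells, whose most abundant marker was *Hbb-bh1*, 8 of 9 listed genes were in the table, and their sum was 177, 145 and 164 RPKM in Tie2-Ezh2-WT replicates 4, 10 and 12 and 82.2 and 134 in Vav-Ezh2-WT replicates 4 and 6. In Tie2-Ezh2-KO replicates 7, 9, 11, 13 and 17 it was 337, 602, 881, 221 and 308 RPKM, all above every WT library, while Vav-Ezh2-KO ranged from 81.5 to 174. Of 8 genes tested in Tie2-Ezh2-KO against WT, *Hba-x* (1.36 ± 0.858 to 166 ± 146 RPKM, log2 difference 6.33, limma adjusted p = 8.88e-05) and *Hbb-bh1* (114 ± 32.1 to 274 ± 142 RPKM, 1.18, limma adjusted p = 0.0441) passed, while *Rhag* was at 15.1 ± 6.48 RPKM in WT and at 16.5 ± 3.39 in Tie2-Ezh2-KO. *Fcgr3* and *Fcgr2b* were lowest on average in the same group, and the part of these markers in that difference was not tested.

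For visceral endoderm, whose most abundant marker was *Trf*, the sum of 9 genes was 199, 21.2 and 24.9 RPKM in Tie2-Ezh2-WT replicates 4, 10 and 12, 17.9 and 25.8 in Vav-Ezh2-WT replicates 4 and 6, and 276, 33.5, 25.2, 24.2 and 34.8 in Tie2-Ezh2-KO replicates 7, 9, 11, 13 and 17. Vav-Ezh2-KO ranged from 10.3 to 21.6 RPKM. The high libraries, Tie2-Ezh2-WT replicate 4 and Tie2-Ezh2-KO replicate 7, belong to different genotypes. The part of these markers in the differences of *Fcgr3* and *Fcgr2b* was not tested. Of 8 genes tested 1, *Amn*, passed in Tie2-Ezh2-KO, at 2.43 ± 1.28 against 0.183 ± 0.348 RPKM in WT (log2 difference 3.01, limma adjusted p = 0.00155), while *Trf*, *Afp* and *Apoa1* were at 24.7 ± 13.9, 10.6 ± 21.1 and 10.6 ± 20.7 RPKM in WT.

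For neutrophils, whose most abundant marker was *Mpo*, the sum of 11 genes was 1323 to 2147 RPKM in WT, 817 to 1427 in Tie2-Ezh2-KO and 1389 to 2255 in Vav-Ezh2-KO. *Camp* and *Ngp*, of mature granules, were listed at 0 in every library. Against WT, 2 of 9 tested genes fell in Tie2-Ezh2-KO: *Elane*, from 15.3 ± 5.28 to 4.28 ± 3.96 RPKM (log2 difference -2.20, limma adjusted p = 0.0261), and *Mpo*, from 1438 ± 274 to 868 ± 238 RPKM (-0.75, limma adjusted p = 0.0414). *Ms4a3* was lower in Tie2-Ezh2-KO than in Vav-Ezh2-KO (-1.79, limma adjusted p = 0.0341). *Prtn3* was at 259.7 ± 83.7 RPKM in WT and 227 ± 47.5 in Tie2-Ezh2-KO (-0.16, limma adjusted p = 0.899). Of the 9 differences from WT, 3 lay above and 6 below 0 (median -0.16, beside 0.01 over all genes). For *Mpo* the control groups did not overlap, at 1115 to 1506 RPKM in Tie2-Ezh2-WT and 1587 to 1776 in Vav-Ezh2-WT. *Mpo* is expressed by myeloid progenitors too, so this list does not mark neutrophils alone.

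For mast cells, the sum of 9 genes, led by *Gata2*, was 120 to 244 RPKM in WT, 121 to 196 in Tie2-Ezh2-KO and 161 to 319 in Vav-Ezh2-KO, and *Mcpt8* was listed at 0 in every library. In WT *Gata2*, *Cpa3* and *Hdc* were at 56.8 ± 12.6, 53.6 ± 27.8 and 49.9 ± 25.1 RPKM. *Cpa3*, with 22.6 ± 10.7 RPKM in Tie2-Ezh2-KO and 67.1 ± 26.4 in Vav-Ezh2-KO, passed in the direct comparison (-1.61, limma adjusted p = 0.0199). It was the only 1 of 8 tested there, with 4 differences above and 4 below 0 (median 0.08, beside 0.04 over all genes). Against WT 5 of 8 lay above 0 in Tie2-Ezh2-KO (median 0.27, beside 0.01). *Gata2* and *Hdc* were at 73.0 ± 26.4 and 38.5 ± 16.5 RPKM in Tie2-Ezh2-KO. For macrophages, the sum of 13 genes, led by *Lyz2*, was 73.9 to 113 RPKM in WT, 81.6 to 89.5 in Tie2-Ezh2-KO and 84.6 to 174 in Vav-Ezh2-KO. *C1qa* was listed at 0 in every library. *Lyz2*, *Cd68* and *Csf1r* were at 75.2 ± 12.8, 13.6 ± 3.77 and 4.58 ± 2.63 RPKM in WT. *Cd68* passed in the direct comparison (-0.71, limma adjusted p = 0.0333). The highest sum of both lists was in Vav-Ezh2-KO replicate 9, which was also the highest library for *Fcgr3* and *Fcgr2b*, and the part of these markers in those levels was not tested.

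Of 12 megakaryocyte markers tested in Tie2-Ezh2-KO against WT 1 passed, as *Gp1ba* fell (8.11 ± 2.29 to 4.06 ± 0.920 RPKM, -0.94, limma adjusted p = 0.0495). *Pf4* and *Gp9* were at 73.2 ± 67.6 and 38.9 ± 11.5 RPKM in WT. For endothelium, led by *Egfl7*, the sum of 11 genes was 148 to 185 RPKM in WT, 151 to 173 in Tie2-Ezh2-KO and 130 to 167 in Vav-Ezh2-KO, and 0 of 10 tested genes passed in any of the 3 comparisons. *Egfl7*, *Pecam1* and *Esam* were at 119 ± 12.9, 18.2 ± 3.13 and 11.7 ± 1.49 RPKM in WT, so the sum mostly followed *Egfl7*. Against WT 7 of 10 differences lay above 0 in Tie2-Ezh2-KO (median 0.25, beside 0.01 over all genes). In the direct comparison 8 of 10 did (median 0.42, beside 0.04), and 5 had an unadjusted p under 0.05, beside 16.6% of all genes. There *Esam* was at 0.77 and *Pecam1* at -0.72 (limma adjusted p = 0.0778 and 0.123). Between the control groups 6 lay above and 4 below 0 (median 0.23). For mesenchyme, led by *Pdgfrb*, the sum of 9 genes was 1.44 to 3.29 RPKM in WT, 1.63 to 2.07 in Tie2-Ezh2-KO and 1.14 to 2.66 in Vav-Ezh2-KO, and 0 of 4 tested genes passed. In WT *Pdgfrb*, *Postn* and *Lum* were at 1.03 ± 0.434, 0.973 ± 0.403 and 0.138 ± 0.172 RPKM. The part of the markers of these 3 lists in the results was not tested.

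The genes whose log2(RPKM + 0.2) followed a gene of the 10 most closely over the 15 libraries, after the mean of each of the 4 groups was subtracted, were sought among genes above a mean of 5 RPKM. These Pearson r describe these libraries, which also share depth and cell handling, and carry no p. For *Fcgr3* they were *Hdc* (r = 0.89), *Psmb8* (0.85) and *Fcgr2b* (0.83), and for *Fcgr2b* they were *Lpcat2* (0.92), *Psmb8* (0.87) and *Ppcdc* (0.87). *Fcgr2b* was thus among the nearest 3 genes of *Fcgr3*, and both had *Psmb8* among theirs. For *Kit* they were *Dcaf8*, *Fbxo45* and *Copb2* (0.94, 0.94 and 0.93), and for *Cd34* *Tubb6*, *Rbpms* and *Eltd1* (0.92, 0.85 and 0.84). *Csf3r* had *Pus7l*, *Tspan14* and *Cdk16* (0.92, 0.88 and 0.88), *Csf2ra* had *Setd6*, *Vim* and *Dcaf12* (0.93, 0.87 and 0.86), and *Csf2rb* had *Raver1*, *Gnb2* and *Tgfb1* (0.91, 0.89 and 0.87). *Il3ra*, *Il6ra* and *Csf2rb2*, which lie below 5 RPKM, were nearest to *Traf3ip3* (0.86), *Hars* (0.90) and *Cant1* (0.92). With 6863 or 6864 genes searched, the highest r of each search is expected to be large.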

How the data were processed

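The authors aligned single-end reads of 75 bases to GRCm38/mm10 with TopHat2 2.0.13, keeping 1 alignment per read, used featureCounts with RefSeq annotation, and deposited values in RPKM for 17454 genes. The unit holds no counts, so no count model was the main test. Whole reads were recovered from the steps between low values: all 16877 genes above 0 came out whole in every library within 0.001 reads. Libraries of a group differed beyond sampling noise in all 24 pairs (chi-square per gene 15.8 or more). This covers counting error only, as PCR copies are not independent, and each library was counted as 1 replicate because each came from an individual YS, as the study describes.

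Genes had to exceed 0.2 RPKM in any library compared, and their log2(RPKM + 0.2) was tested with limma 3.58.1 in R 4.3.3 (lmFit, eBayes with trend, Benjamini-Hochberg adjustment), tested on simulated data beforehand. The comparisons of both knockouts with WT share the 5 WT libraries. Genes named are the 10 genes, the 3 most abundant in WT and those past the threshold of each of 14 lists, the gate antigens, and the 3 nearest genes of each of the 10; some of these are not reported. The 10 genes and the lists were chosen with earlier results of these data known. Alternatives were pseudocounts of 1 and 0.05, other filters, no trend, quantile and median scaling, array weights, limma-voom on recovered reads, corresponding WT only, 1 fit for all 15 libraries and leaving out each library. The labels give 500 cells per library and the study's description of the RNA-seq a lower number, and which holds was not settled.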

Additional observations from a re-analysis of the deposited data

Results flagged for a closer look

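Each of the 10 genes was looked at in WT and in each knockout, 5 libraries each, for a library whose gap to its nearest neighbour on the log2(RPKM + 0.2) scale took up an unusual share of the range of its group (Dixon's test). Of 30 groups 2 had such a library, where chance gives about 1 in 20. *Cd34* in WT was at 213 RPKM in Vav-Ezh2-WT replicate 6, a gap of 0.841 of the range, with the other 4 libraries between 134 and 144. *Il3ra* in Vav-Ezh2-KO was at 0.936 RPKM in replicate 10, a gap of 0.726 of the range, with the other 4 between 2.79 and 4.11. None of the 10 genes passed the test of a difference between the knockout effects.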

How the results depend on the processing

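The count of the 10 genes past the threshold was 0 under each alternative run for a comparison, except that leaving out 1 library gave 0 to 1 in Tie2-Ezh2-KO against Vav-Ezh2-KO (*Fcgr2b*). Of 475 differences recomputed under the other alternatives 455 kept their direction. With the corresponding WT only, the sign changed for *Csf2rb* (0.01), *Il6ra* (0.27) and *Csf2rb2* (0.28) in Tie2-Ezh2-KO and for *Csf2rb* (-0.29), *Il6ra* (-0.89) and *Csf2rb2* (-0.43) in Vav-Ezh2-KO. It changed with limma-voom for *Csf2rb2* in Tie2-Ezh2-KO (0.13) and *Csf2ra* in Vav-Ezh2-KO (0.04), with array weights for *Il3ra* in Tie2-Ezh2-KO (0.01) and between control groups (0.02) and for *Csf2ra* between the knockouts (0.05). With quantile normalization it changed for *Csf2ra* in Vav-Ezh2-KO (0.02), *Il3ra* between the knockouts (-0.06) and between control groups (0.03), and *Csf2ra* (-0.12) and *Il3ra* (-0.10) in the difference of effects. With a common median it changed for *Csf2ra* in Vav-Ezh2-KO (0.02), *Il3ra* between control groups (0.01), and *Kit* (-0.01) and *Csf2ra* (-0.05) in the difference of effects. The cause was not tested.

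Leaving out 1 library changed the sign in 55 of 500 differences, with ranges in Tie2-Ezh2-KO of -0.32 to 0.07 (*Kit*), -0.25 to 0.06 (*Csf2ra*), -0.16 to 0.11 (*Il3ra*) and -0.46 to 0.16 (*Csf2rb2*). In Vav-Ezh2-KO they were -0.09 to 0.16 (*Fcgr3*), -0.02 to 0.42 (*Fcgr2b*), -0.20 to 0.34 (*Csf2rb*), -0.17 to 0.11 (*Csf2ra*), -0.23 to 0.25 (*Il3ra*), -0.14 to 0.34 (*Il6ra*) and -0.07 to 0.52 (*Csf2rb2*). Between the knockouts they were -0.09 to 0.31 (*Kit*), -0.26 to 0.11 (*Csf3r*), -0.25 to 0.08 (*Csf2ra*) and -0.29 to 0.19 (*Il3ra*). For the control groups and the difference of effects, leaving out libraries was chosen after seeing the data, and where 1 control library was left it was assumed to vary like the others. Between control groups the ranges were -0.59 to 0.07 (*Cd34*), -0.00 to 0.35 (*Fcgr3*), -0.09 to 0.21 (*Kit*), -0.08 to 0.46 (*Fcgr2b*) and -0.59 to 0.49 (*Il3ra*), and for the difference of effects -0.15 to 0.25 (*Kit*), -0.31 to 0.77 (*Csf2rb*), -0.12 to 0.22 (*Csf2ra*) and -0.45 to 0.63 (*Il3ra*).

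Limma-voom, 1 fit for all libraries and the corresponding WT alone were not run for the control groups or the difference of effects.

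The number of all genes past the threshold, set beside these counts, varied more. It was 386 in Tie2-Ezh2-KO against WT, 240 with the filter on a mean above 1 RPKM, 187 with the corresponding WT only, 493 with all 15 libraries in 1 fit, 533 with array weights and 262 to 438 leaving out 1 library. Between the knockouts it was 495, 765 with array weights, 969 without Tie2-Ezh2-KO replicate 9 and 320 without Vav-Ezh2-KO replicate 28. Between control groups it was 20, 0 with eBayes without trend or with no filter, 52 with array weights, 99 without Tie2-Ezh2-WT replicate 12 and 0 without Tie2-Ezh2-WT replicate 10 or either Vav-Ezh2-WT library. For the difference of effects it was 26, 78 with array weights, 10 with the mean filter and 8 to 32 leaving out 1 library. In Vav-Ezh2-KO against WT it was 0 to 2 throughout.

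*Csf2rb2* fell under the filter on a mean above 1 RPKM, so 9 genes were tested there. No paired analysis was possible because any 2 groups share at most 1 replicate number. With 8 to 161 reads per library, *Csf2rb2* was the least covered of the 10 genes.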
